A study of Saccharomyces cerevisiae with 3 samples.

Results

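Translation elongation factors carry the ribosome from codon to codon once protein synthesis has begun. The 10 budding yeast (Saccharomyces cerevisiae) genes described here were chosen by name: TEF1 and TEF2 for eEF1A, EFB1, TEF4 and CAM1 for its exchange factor eEF1B, EFT1 and EFT2 for eEF2, YEF3 and HEF3 for eEF3, and HYP2 for eIF5A. They are 10 of 6002 nuclear protein-coding genes. For each gene the region from 500 bp before its start codon to its end was searched for enriched regions (peaks) of histone H3 dimethylated or trimethylated at lysine 4 (H3K4me2 and H3K4me3). The study compared both marks by chromatin immunoprecipitation and sequencing in 1 strain, BY4741, a haploid laboratory strain of mating type a, grown in YEPD (rich glucose medium) to mid-log phase. Cells were fixed with formaldehyde and the chromatin was cut with micrococcal nuclease, which cuts between nucleosomes. The series has 1 H3K4me2 library, 1 H3K4me3 library and 1 input without antibody, and the values come from the peak lists of the first 2. With a single library per mark no test was run, and every value is a description of these libraries.

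eEF1A brings aminoacyl-tRNA to the ribosome as a complex with GTP, and eEF1B reloads it with GTP. eEF2 moves the ribosome along the mRNA, and eEF3, an ATPase that budding yeast needs and animals lack, helps to release spent tRNA. eIF5A carries the modified amino acid hypusine and eases peptide bond formation at difficult sequences such as runs of proline. In yeast, the Set1 complex (COMPASS) places all H3K4 methylation; H3K4me3 is known from the beginnings of transcribed genes and H3K4me2 from the nucleosomes that follow.

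The H3K4me2 list held 2998 peaks with a median of 453 tags (sequenced fragments counted in a peak, range 170 to 1776), and the H3K4me3 list held 3714 with a median of 391 tags (range 128 to 2689). The depth of each library is unknown, because only tags inside peaks are listed. Of the 4 genes altered in BY4741, LEU2, MET17 and URA3 had no base under either mark, and HIS3 had H3K4me3 over 60.6% of the annotated gene.

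The 10 genes fell into 3 groups. EFB1, TEF4, CAM1, YEF3 and HYP2 had H3K4me3 over their starts, HEF3 had H3K4me2 without H3K4me3, and TEF1, TEF2, EFT1 and EFT2 had no base of either mark inside the gene. A start was called marked when peaks covered at least 50% of the first 500 bp of the gene, or of the whole gene where it is shorter. By this rule 5 of 10 genes had H3K4me3 (50%, exact 95% interval 18.7 to 81.3), against 64.6% of all genes. H3K4me2 marked 2 of 10, CAM1 and HEF3, against 43.5% of all genes. H3K4me3 without H3K4me2 was found at 4 of 10 starts, EFB1, TEF4, YEF3 and HYP2, against 26.2% of all genes. Both marks were found at 1 of 10, CAM1, against 38.4%. H3K4me2 without H3K4me3 was found at 1 of 10, HEF3, against 5.1%, and rests on 1 weak peak. A gene without any marked base from its start codon to its end was found 4 times in 10, against 27.4% of all genes. With 10 genes the intervals are wide, and the intervals cover counting error only.

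**Figure D1:**
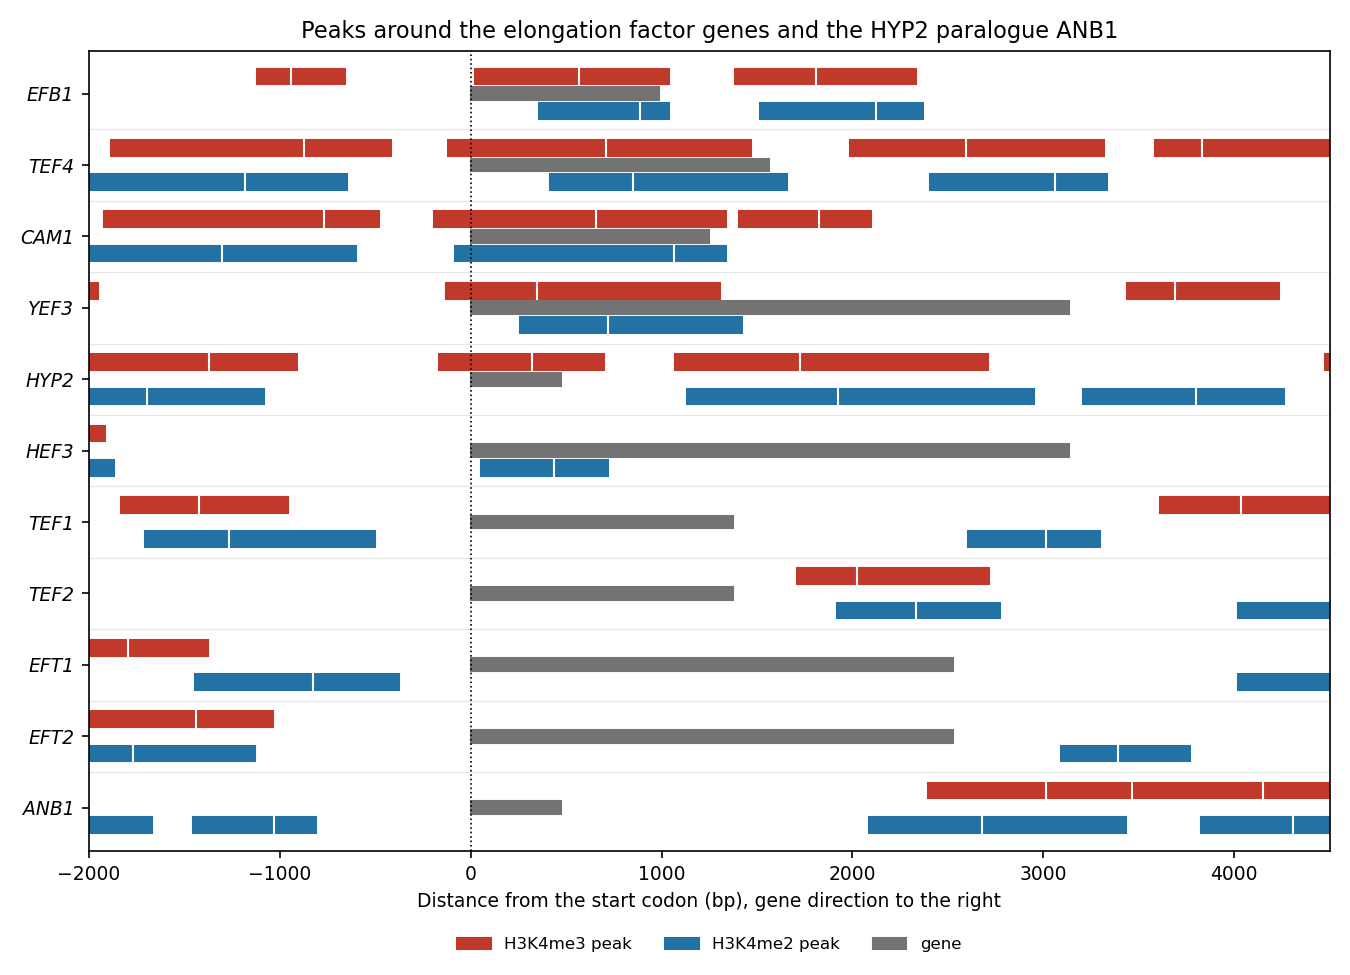
Peaks of H3K4me3 (red) and H3K4me2 (blue) around the 10 elongation factor genes and ANB1, the paralogue of HYP2; the x axis gives distance from the start codon in bp, grey bars are the genes and white ticks the peak summits. EFB1, TEF4, CAM1 and YEF3 carry both marks, HYP2 H3K4me3, HEF3 H3K4me2, and the other 5 genes neither inside the gene.

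Counted from 500 bp upstream of the start codon, 5 of 10 genes met an H3K4me3 peak (all genes 73.9%) and 7 of 10 an H3K4me2 peak (all genes 60.4%). The 7 include TEF1 and EFT1, each reached by a peak of the upstream neighbour. At TEF1 that peak ended exactly 500 bp before the start codon and gave 1 base to the region; at EFT1 it ended 374 bp before the start codon and gave 127 bases.

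EFB1 (YAL003W, chromosome I, 142174 to 143160, plus strand, sacCer3) encodes the subunit of eEF1B that exchanges the nucleotide on eEF1A. Its H3K4me3 peak held 542 tags (exact Poisson 95% interval 497 to 590) at a fold enrichment of 4.63, the authors' value, which ranked 4 of 3714 in the list. The peak ran from 24 to 1041 bp after the start codon, with its summit at 565 bp, and covered 97.6% of the gene. An H3K4me2 peak with 265 tags (234 to 299) lay from 359 to 1037 bp and covered 63.6% of the gene but 28.2% of the start window. EFB1 therefore had a top H3K4me3 peak and, behind it, an H3K4me2 peak that was narrow (width above 7% of its list) and of low fold (2.43, above 24.8% of its list). The score of this H3K4me2 peak, read as minus 10 times the log10 of p, was 88.21, below the alternative limit of 100.

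TEF4 (YKL081W, chromosome XI, 282891 to 284455, plus strand) and CAM1 (YPL048W, chromosome XVI, 464401 to 465648, plus strand) encode the gamma subunit of eEF1B. Both carried wide peaks of both marks, but H3K4me2 began at different places. At TEF4 H3K4me3 ran from 117 bp before to 1468 bp after the start codon, with 730 tags (678 to 785) at 3.17-fold. H3K4me2 there began 417 bp after the start codon and ended at 1656 bp, 92 bp beyond the gene, with 680 tags (630 to 733) at 2.82-fold. It covered 16.6% of the TEF4 start window and 73.4% of the gene. At CAM1 H3K4me3 ran from 191 bp before to 1336 bp after the start codon, with 941 tags (882 to 1003) at 3.59-fold. H3K4me2 began 81 bp before the CAM1 start codon, ended 1 bp short of the end of the H3K4me3 peak, and held 790 tags (736 to 847) at 2.83-fold. CAM1 was thus covered from start to end by both marks, and was the only 1 of the 10 with both over its start window. Its H3K4me3 peak held 616 tags per kb, a density above 99.6% of that list, and its H3K4me2 peak 558 tags per kb, above 97.2%. Over the 150 steps of 10 bp from 500 bp before to 1000 bp after the start codon, TEF4 and CAM1 had the same state (no mark, either or both) at 56.7%; the median against any gene was 46.7% for TEF4 and 48% for CAM1. The divergent neighbours of these genes, RRP14 and DIG1, each had an H3K4me3 peak of their own that reached into the upstream region, over 85 bases at TEF4 and 20 bases at CAM1.

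YEF3 (YLR249W, chromosome XII, 636780 to 639914, plus strand), the essential eEF3 gene, carried both marks over its first part. H3K4me3 ran from 129 bp before to 1306 bp after the start codon with 768 tags (715 to 824) at 3.3-fold. H3K4me2 ran from 259 to 1423 bp with 546 tags (501 to 594) at 2.24-fold, a fold above 7.24% of its list. It covered 48.2% of the YEF3 start window, just below the limit of 50%, so YEF3 counted as H3K4me3 alone. The remaining part of the gene, beyond 1423 bp, was free of both marks.

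HYP2 (YEL034W, chromosome V, 85676 to 86149, plus strand), the gene of eIF5A and the shortest of the 10 at 474 bp, carried H3K4me3 alone. Its peak ran from 167 bp before to 700 bp after the start codon, so that it covered the whole gene and reached 198 bases into the next gene, MTC7. It held 486 tags (444 to 531) at 4.4-fold and ranked 12 of 3714. The nearest H3K4me2 bases lay 1084 bp before the start codon and 660 bp beyond the gene. Its paralogue ANB1 (YJR047C, chromosome X, 524908 to 525381, minus strand), which is known as the form used without oxygen, had no base of either mark from 500 bp upstream to its end. HYP2 and ANB1 shared the same state at 34.7% of the 98 steps compared, close to the median of 35.7% between HYP2 and any gene.

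HEF3 (YNL014W, chromosome XIV, 606319 to 609453, plus strand), a second eEF3 gene of the same length as YEF3 and known for little expression in growing cells, showed the reverse of HYP2. It had no H3K4me3 base, and 1 H3K4me2 peak from 53 to 722 bp after the start codon, over 89.4% of the start window and 21.4% of the gene. This peak was weak, with 243 tags (213 to 276) at 2.45-fold and a score of 50.32, next to the lowest score of 50.02 in the H3K4me2 list. HEF3 and YEF3 had the same state at 25.3% of the 150 steps. The median was 28% between HEF3 and any gene, and 49.3% between YEF3 and any gene. Neither neighbour of HEF3, PBI2 or SPO1, had a base under either mark, and the stretch without H3K4me3 around HEF3 was 8008 bp long, longer than 96.1% of the 3698 stretches between H3K4me3 peaks. That stretch holds the whole of HEF3 by definition, so it is at least 3135 bp long whatever lies around the gene.

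**Figure D2:**
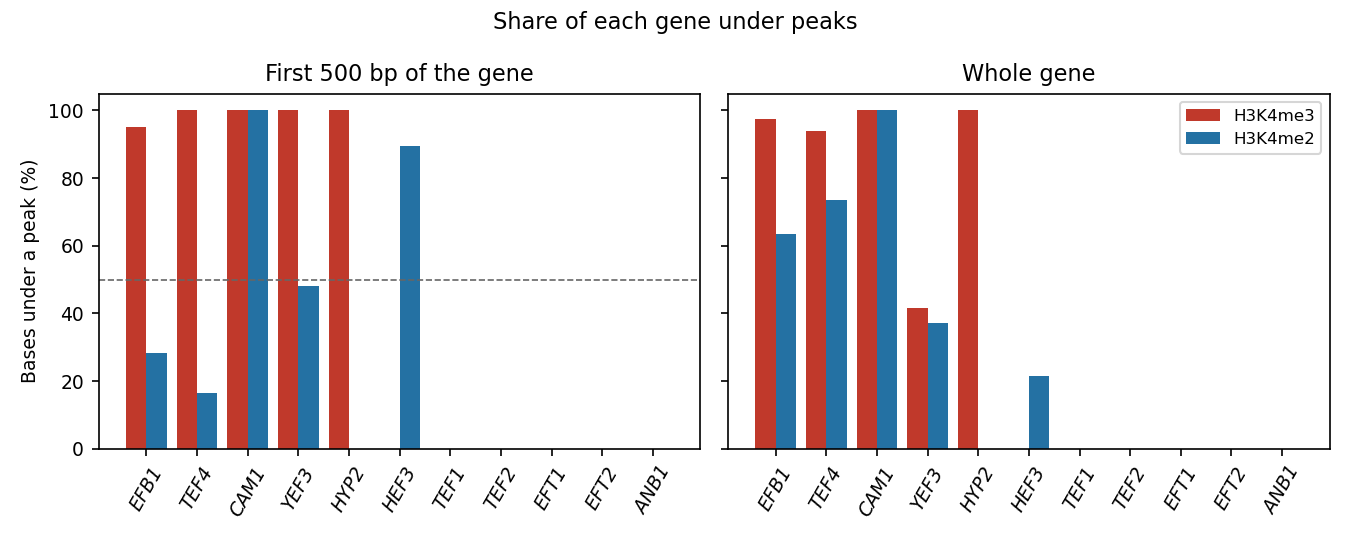
Percent of bases under H3K4me3 (red) and H3K4me2 (blue) peaks in the first 500 bp (left, dashed line at the limit of 50%) and in the whole gene (right) for each elongation factor gene and ANB1. H3K4me2 covers less of the start window than H3K4me3 in EFB1 (28.2 against 95.2%), TEF4 and YEF3, and the same in CAM1.

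The genes of eEF1A and eEF2 had no peak inside them. TEF1 (YPR080W, chromosome XVI, 700594 to 701970, plus strand) and TEF2 (YBR118W, chromosome II, 477671 to 479047, plus strand) are both 1377 bp long and encode the same protein. EFT1 (YOR133W, chromosome XV, 575098 to 577626, plus strand) and EFT2 (YDR385W, chromosome IV, 1243230 to 1245758, plus strand) are both 2529 bp long and also encode the same protein. All 4 had 0 bases under H3K4me3 and 0 under H3K4me2 from the start codon to the end of the gene. Among genes within 10% of the length of TEF1 162 of 701 (23.1%) had no peak inside, and within 10% of the length of EFT1 78 of 388 (20.1%). The sources used here do not say how reads that match both copies of such a pair were treated, so an unmarked gene and a gene whose reads were set aside cannot be told apart.

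Peaks resumed on either side of the 4 genes. The stretch without H3K4me3 was 4565 bp at TEF1, 4218 bp at TEF2, 6410 bp at EFT1 and 6921 bp at EFT2, against a median of 1146 bp between H3K4me3 peaks over the whole list. Each of these genes is itself longer than that median, so its stretch exceeds the median by construction. The stretch without H3K4me2 was 3104 bp at TEF1, 4006 bp at TEF2, 4394 bp at EFT1 and 4222 bp at EFT2. The median between H3K4me2 peaks was 1446 bp, and the 4 stretches were longer than 70.3 to 80.8% of those. These stretches too span at least the whole gene. At TEF1 the nearest H3K4me3 peak ended 957 bp before the start codon, over the neighbour MRL1. At TEF2 it began 334 bp beyond the end of the gene, over MUD1. At EFT1 it ended 1374 bp before the start codon, over VPS17, and at EFT2 1037 bp before it, over ATO3. The H3K4me2 peak closest to a start codon among the 4, the one 374 bp before EFT1, was among the weakest of its list, at 1.86-fold and rank 2996 of 2998.

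Another pair of near-identical translation genes was the exception among initiation factors. TIF1 (YKR059W) and TIF2 (YJL138C), both 1188 bp long, encode the same eIF4A protein, an RNA helicase, and both had 0 bases under either mark inside the gene. In the 500 bp upstream TIF1 had none as well, while TIF2 had 292 bases of H3K4me3 and 103 of H3K4me2. The other 25 of 27 initiation factor genes all had H3K4me3 over the start. Ribosomal protein genes, most of which have a second copy with some differences in sequence, had H3K4me3 in most cases. Of 118 genes with an A and a B copy 86 had H3K4me3 over the start (72.9%, 63.9 to 80.7), and of 32 whose copies span the same length 23 did (71.9%, 53.3 to 86.3). Of 19 ribosomal protein genes without a second copy 17 did (89.5%, 66.9 to 98.7). The intervals overlap, and this split was chosen after the values of the elongation factor genes were seen. No sequences were compared, so copies of equal span need not be equal in sequence. Whether a second copy goes with a missing peak was not tested, for these genes or for the elongation and initiation factor genes. Over all genes the share with H3K4me3 over the start was 64.6%, and with H3K4me2 43.5%. Without the 4 genes of the identical pairs, 5 of 6 elongation factor genes had H3K4me3 over the start (83.3%, 35.9 to 99.6) and 2 of 6 H3K4me2 (33.3%). The 4 left out are the genes without a marked base inside, so both shares rise by this choice alone.

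**Figure D3:**
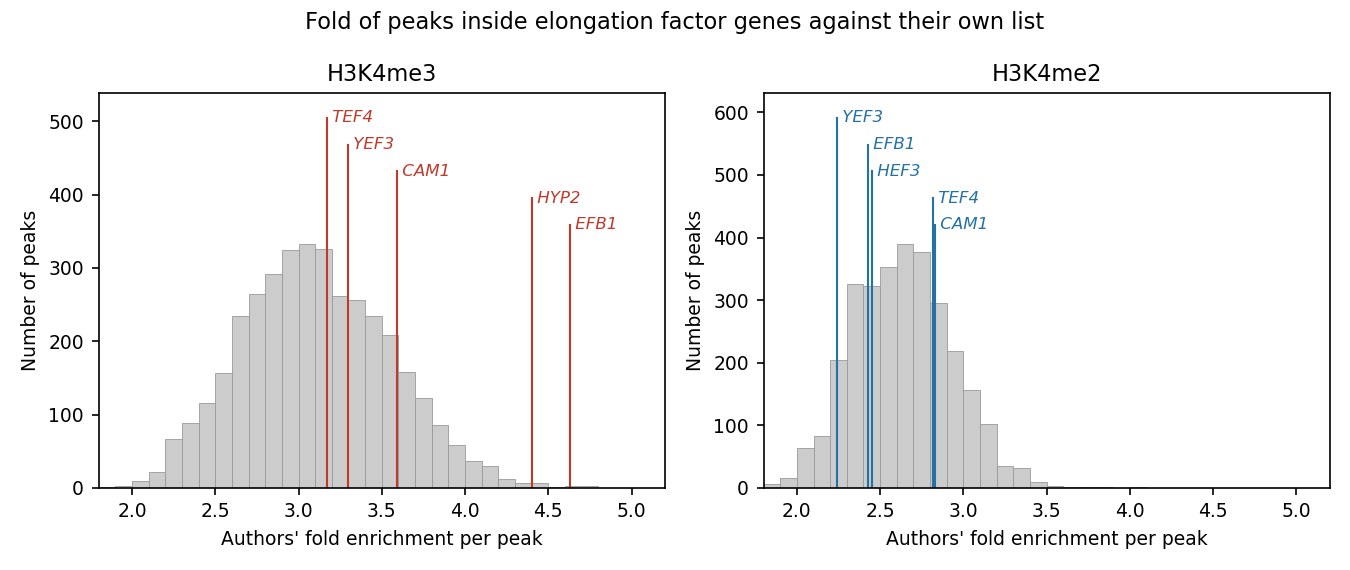
Number of peaks (y axis) by the authors' fold enrichment (x axis) in the H3K4me3 list (left) and the H3K4me2 list (right); vertical lines mark the peaks inside elongation factor genes. EFB1 (4.63) and HYP2 (4.4) stand in the upper tail of H3K4me3, and the H3K4me2 peaks of these genes lie between 2.24 and 2.83.

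All 5 H3K4me3 peaks over elongation factor starts had a fold above the median of their list, 3.09. EFB1 lay above 99.9% of peaks, HYP2 above 99.6%, CAM1 above 84.9%, YEF3 above 66.5% and TEF4 above 56.8%. In tags per kb the order was CAM1 (616), HYP2 (560), YEF3 (535), EFB1 (532) and TEF4 (460), against a list median of 406. The exact Poisson intervals of neighbours in this order overlapped, and differences between them were not tested. The intervals were 577 to 656 tags per kb in CAM1, 512 to 612 in HYP2 and 498 to 574 in YEF3. In EFB1 the interval was 488 to 580 and in TEF4 427 to 495. For H3K4me2, CAM1 and TEF4 lay above the list median of 2.64 at 2.83 and 2.82, while HEF3 (2.45), EFB1 (2.43) and YEF3 (2.24) lay below it. Folds were ranked within a list and never set against those of the other list, because library depth enters them.

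Cytosolic ribosomal protein genes had H3K4me2 at no start, and the elongation factor genes were set beside them for this reason. Of 137 ribosomal protein genes 103 had H3K4me3 over the start (75.2%, 67.1 to 82.2) and 0 had H3K4me2, where 3 counts of 137 would be a share of 2.19% and the exact interval reaches 2.66%. Counted from 500 bp upstream to the gene end, 10 of 137 (7.3%) met an H3K4me2 peak, against 7 of 10 elongation factor genes and 60.4% of all genes. Those 7 include TEF1 and EFT1, which were reached only by a peak of the upstream neighbour. RPL16A (4.48-fold) and RPS19B (4.41-fold) had the strongest H3K4me3 among them, and the longest that did not meet the H3K4me3 limit were RPL7A and RPL7B. Among genes with H3K4me3 over the start, H3K4me2 also marked the start in 59.5% of all genes, in 1 of 5 elongation factor genes, CAM1, and in 0 of 103 ribosomal protein genes. Inside the gene the picture differed. At least 1 base of H3K4me2 lay within 4 of 5 H3K4me3-marked elongation factor genes (80%, 28.4 to 99.5), EFB1, TEF4, CAM1 and YEF3, against 68.8% of all such genes and 1 of 103 ribosomal protein genes (0.971%, 0.0246 to 5.29). That 1 gene was RPS0B (YLR048W), with H3K4me2 over 654 of 1118 bp. The intervals of elongation factor and ribosomal protein genes do not overlap here, but they treat genes of 1 library per mark as independent. The difference was not tested, and this measure was added after seeing the data. For peaks cut to 500 bp around the summit the shares were 1 of 2 (50%, 1.26 to 98.7) and 0 of 48 (0%, 0 to 7.4). The intervals then overlapped, and the share of all marked genes was 66.8%. With only the stronger peaks of each list (fold not below the list median) the shares were 2 of 5 elongation factor genes (40%, 5.27 to 85.3), 1 of 78 ribosomal protein genes (1.28%, 0.0325 to 6.94) and 45.9% of all marked genes, and the intervals overlapped.

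Longer genes held H3K4me2 more often. Ribosomal protein genes had a median span of 771 bp, against 1471 bp for the elongation factor genes. Of the H3K4me3-marked genes at least as long as EFB1 (987 bp), 78.9% held H3K4me2 somewhere, and of shorter ones 49.7%. Of the 11 marked ribosomal protein genes of at least 987 bp, 1 did (9.09%, 0.23 to 41.3), while all 4 marked elongation factor genes of that length did. EFB1, whose length sets this limit, is the shortest marked elongation factor gene with H3K4me2 inside. The limit leaves out HYP2, so that all 4 did follows from the choice of limit and says nothing on the lists. HYP2, the marked gene without H3K4me2, belongs to the short genes: among all marked genes of at most 474 bp, 75 of 270 (27.8%) held H3K4me2. How much of the difference between the lists goes with length was not tested.

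**Figure D4:**
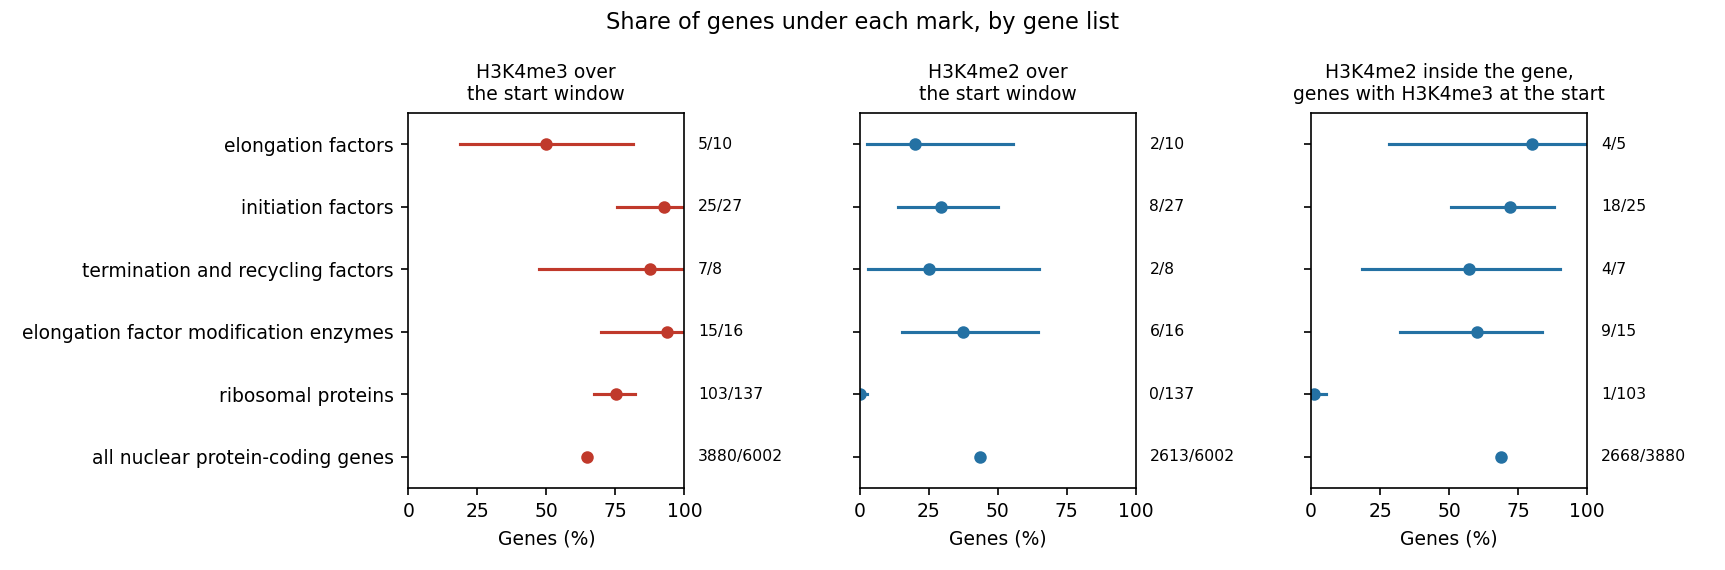
Percent of genes (x axis) with H3K4me3 or H3K4me2 over the start window, and with H3K4me2 inside the gene among genes with H3K4me3 at the start, for each gene list; points are shares, lines exact 95% intervals, and the counts stand at the right. Elongation factor genes hold H3K4me2 inside the gene in 4 of 5 cases, ribosomal protein genes in 1 of 103.

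In 3 of the 4 genes with both marks H3K4me2 began late. Its first base lay 359 bp after the start codon in EFB1, later than in 94.1% of the 2668 genes with H3K4me3 at the start and H3K4me2 inside. It lay at 417 bp in TEF4 (later than in 97.2%), at 259 bp in YEF3 (later than in 87.6%) and 81 bp before the start codon in CAM1 (later than in 22%). The median over the 2668 genes was 66 bp after the start codon. The upstream edge of H3K4me2 lay downstream of that of H3K4me3 in all 4 genes, by 335 bp in EFB1, 534 bp in TEF4, 388 bp in YEF3 and 110 bp in CAM1. The median over all 2668 genes was 200 bp (quartiles 88 and 343 bp), and 91.6% had the edges in this order. The downstream edges were closer together. H3K4me2 ended 188 bp after H3K4me3 in TEF4 and 117 bp after it in YEF3, while in EFB1 and CAM1 both marks ended within 4 bp of each other; the median over all genes was 168 bp.

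**Figure D5:**
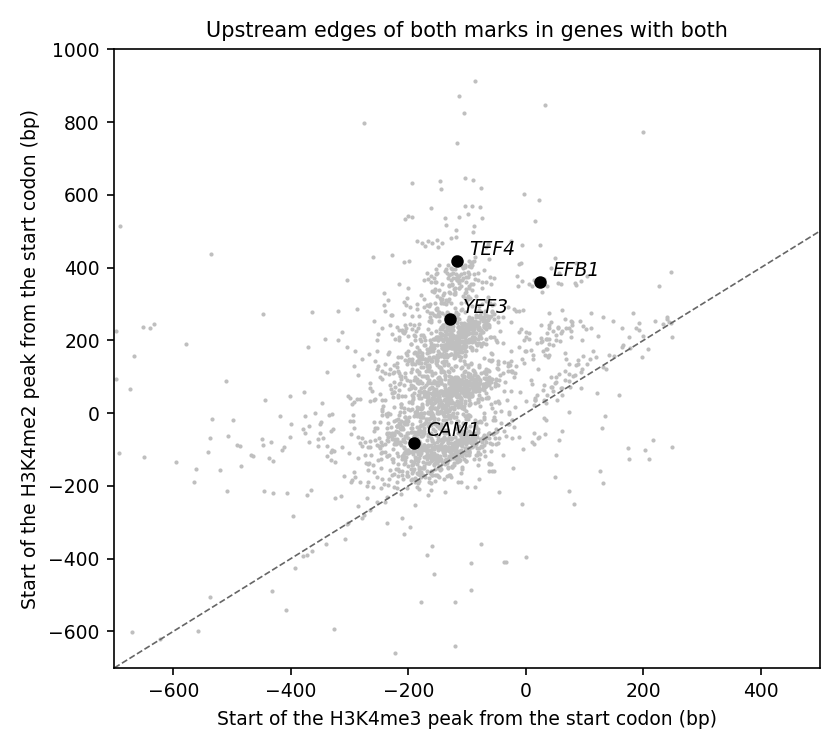
Start of the H3K4me2 peak (y axis) against start of the H3K4me3 peak (x axis), in bp from the start codon, for genes with both marks; grey points are genes, the 4 labelled points elongation factor genes, and the dashed line marks equal positions. Of 2668 genes, 234 lie outside the axes; EFB1, TEF4 and YEF3 lie high above the line and CAM1 near it.

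H3K4me3 began before the start codon in 4 of the 5 marked genes. The upstream edge lay 191 bp before it in CAM1, 167 bp in HYP2, 129 bp in YEF3 and 117 bp in TEF4, inside or close to the quartiles over all 3880 marked genes (185 and 91 bp before the start codon, median 130 bp). EFB1 differed, with an edge 24 bp after the start codon, further downstream than in 92.7% of genes. An edge inside the gene was found in 8.43% of marked genes, and in 56 of 103 marked ribosomal protein genes (54.4%, 44.3 to 64.2), whose median edge lay 25 bp after the start codon. The EFB1 edge thus lay near the ribosomal protein median, but 327 of all 3880 marked genes also had an edge inside the gene. Ribosomal protein edges lay on both sides of the start codon, with a lower quartile 88 bp before it, so this edge does not sort the genes into classes. The H3K4me3 peaks also reached far into these genes. They ended 1041 bp after the start codon in EFB1, 1306 bp in YEF3, 1336 bp in CAM1 and 1468 bp in TEF4, against a median of 844 bp over all marked genes, and at 700 bp in HYP2. The summits of TEF4 (710 bp), CAM1 (654 bp) and EFB1 (565 bp) lay further downstream than in 96.3, 94.7 and 91.1% of marked genes. Those of YEF3 (345 bp, 63.7%) and HYP2 (319 bp, 56.1%) lay near the middle. Ribosomal protein genes had late summits as well, with a median of 505 bp and an upper quartile of 639 bp.

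Most other translation genes had H3K4me3 over the start, where all genes have 64.6% for H3K4me3 and 43.5% for H3K4me2. Of 27 initiation factor genes 25 had H3K4me3 over the start (92.6%, 75.7 to 99.1) and 8 had H3K4me2 (29.6%). The strongest were GCD11 (eIF2 gamma, 4.15-fold, 728 tags) and TIF5 (eIF5, 3.82-fold, 624 tags), in which H3K4me2 covered 32.4 and 45.6% of the window. Of 8 termination and recycling factor genes 7 had H3K4me3 and 2 had H3K4me2. SUP35 (eRF3, 4.1-fold, 1086 tags) and RLI1 (a ribosome recycling ATPase, 3.64-fold, 425 tags) led that list, and DOM34, which acts on stalled ribosomes, had no marked base inside the gene, with H3K4me3 over 104 upstream bases. Of the 25 marked initiation factor genes 18 held H3K4me2 inside the gene (72%, 50.6 to 87.9), and of the 7 marked termination and recycling factor genes 4 did. Among all genes with H3K4me3 over the start the share was 68.8%.

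The enzymes that modify elongation factors are the makers of hypusine on eIF5A (DYS1, LIA1), the makers of diphthamide on eEF2, and methyltransferases of eEF1A, eEF2 and eEF3. Of 16 such genes 15 had H3K4me3 over the start (93.8%, 69.8 to 99.8) and 6 had H3K4me2 (37.5%), against 64.6 and 43.5% of all genes. DPH5 (3.77-fold, 537 tags) and KTI11 (3.75-fold, 697 tags), both of the diphthamide pathway, were strongest, and DPH6 of the same pathway was the only 1 without, with 0 bases of either mark. DYS1 carried both marks and LIA1 H3K4me3 with H3K4me2 over 36.6% of its window. Of 4 mitochondrial elongation factor genes TUF1 (3.34-fold, 740 tags), MEF2 (3.04-fold, 253 tags) and MEF1 carried both marks, and GUF1 had no marked base inside the gene, with H3K4me3 over 69 and H3K4me2 over 68 upstream bases. Among relatives of eEF3, NEW1 (3.35-fold, 630 tags) had H3K4me3 with H3K4me2 over 18.8% of the window, and GCN20 (3.26-fold, 486 tags) had both.

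The genes whose pattern was most like each elongation factor gene were found over the same 10 bp steps, in 1 library per mark. CDC16 (97.3% of 149 steps equal) and HMG1 (96%) were most like EFB1, where the median gene had 45%. NEW1 (95.3%) and TAF12 (93.3%) were most like TEF4, LEU4 (98%) and ERG3 (97.3%) most like CAM1, and GAP1 (92%) and ARR3 (91.3%) most like HEF3. ABP140 and KCS1 matched YEF3 at 99.3%, among 4 tied genes. CRM1 and EMG1 matched HYP2 at 100% of 98 steps, among 18 tied genes that include the ribosomal protein gene RPS2. The closest ribosomal protein gene to EFB1, TEF4 and YEF3 was RPS0B, at 86.6, 87.3 and 82% of steps. It ranked 71 of 3628, 40 of 3590 and 423 of 3591 genes. RPS0B is the only ribosomal protein gene with H3K4me2 inside, so it does not stand for that list. For CAM1 the closest was RPS0B at 54.7% (rank 1640 of 3590), and for HEF3 RPL4A at 55.3% (rank 536 of 3591). For TEF1 and EFT1, whose windows are almost empty, FDC1 and SPH1 (100%) and FUS1 and PBI1 (99.3%) were named by the same rule.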

How the data were processed

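The submitters' processing notes name CASAVA 1.8.2, MACS 1.4.2 (which calls peaks) and the build sacCer3; aligner, settings and control were not given in the sources used here. Each library has 1 deposited list. Per the file headers it gives for every peak a tag count (not normalised), a fold, which is a ratio to an unnamed background, and a p-value. The deposited p-value cells all exceed 50, so the column was taken as the score written by MACS, minus 10 times the log10 of p. Genes came from a RefSeq table of R64, the assembly that sacCer3 names, and strand from the systematic name. Its spans hold introns and 96.4% are multiples of 3, so they run from start to stop codon. Cover was computed per base, with positions read as 1-based, in Python 3.11.15 with numpy 2.4.6, pandas 2.3.3 and scipy 1.17.1. Simulated peaks on 1296 genes were all recovered. Shares have exact (Clopper-Pearson) intervals. The members, lists and rules were chosen with earlier results of these data known. Named genes are the members, ANB1, their neighbours, per list the 2 strongest and 2 longest without H3K4me3, ribosomal protein genes with any H3K4me2, and the 2 most alike per member. DYS1, LIA1, MEF1 and genes given for a tie or a setting were named after their values were seen. TSF1, listed at first, matched no gene and was left out. Alternatives were other peak thresholds, peak widths, windows and limits.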

Additional observations from a re-analysis of the deposited data

How the results depend on the processing

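The assignment of H3K4me3 to EFB1, TEF4, CAM1, YEF3 and HYP2 was the same under 8 of the 10 alternatives that bear on it. With every peak cut to 500 bp around its summit, 2 elongation factor genes had H3K4me3 over the start (YEF3 and HYP2), 1 had H3K4me2, and 2 had H3K4me3 alone; the share of marked genes with H3K4me2 at the start was 0% and 48 ribosomal protein genes had H3K4me3. With a window of 500 bp either side of the start codon, EFB1 no longer met the limit for H3K4me3, 1 elongation factor gene had H3K4me2 over the window and 49 ribosomal protein genes H3K4me3. A score of at least 100 left H3K4me2 over 1 start (CAM1), in 4 regions from 500 bp upstream and inside 3 genes (TEF4, CAM1 and YEF3). Peaks at or above the median fold left 1 (CAM1), 3 and 2. HEF3 lost its H3K4me2 peak under both settings and then had no mark. With 1 bp of the window as the limit, or the first 1000 bp as the window, 5 starts had H3K4me2, 1 had H3K4me3 alone, 80% of marked genes also had H3K4me2 and 1 ribosomal protein gene had H3K4me2; with 25% as the limit, 4 had H3K4me2 and 2 H3K4me3 alone. The share of marked elongation factor genes with H3K4me2 inside the gene (80%) was 60% with a score of at least 100 (all marked genes 57.5%), 40% with the median fold and 50% of 2 genes with summits alone. The cause of these shifts was not tested. In all, 65 of 88 values stayed within 1.5 times their count or, for shares, within their interval. The intervals of these shares rest on 5 genes and are wide, so the fall from 80% to 40% counted as within. For shares this tally therefore says little about stability. The values on H3K4me2 inside the gene were added after seeing the data. No paired analysis was possible because each mark has 1 library. The unknown depth limits what a missing peak can show.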

Other observations

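The introns of EFB1 and TEF4 hold small nucleolar RNA genes that guide RNA modification. SNR18 lies 193 to 294 bp after the EFB1 start codon and SNR38 lies 294 to 388 bp after that of TEF4. Both were fully under H3K4me3 (102 of 102 and 95 of 95 bases) and had 0 bases under H3K4me2, which began 359 and 417 bp after the start codons.

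Of the 20 protein-coding neighbours of the elongation factor genes, H3K4me3 lay over the start of 12 (60%; all genes 64.6%) and H3K4me2 over that of 7 (35%; all genes 43.5%). At EFB1, the Hsp70 gene SSA1 had H3K4me3 over 75% of its start window without H3K4me2, and the vacuolar sorting gene VPS8 had both marks over all of it. At YEF3 both neighbours, the kinase gene RCK2 and SSP120, had H3K4me3 over the whole window and no H3K4me2 base. At TEF1 the neighbours differed: MRL1 carried both marks, and the glycyl-tRNA synthetase gene GRS2 carried H3K4me2 over 84.6% of the window with no H3K4me3. At EFT2, ATO3 carried both marks over the whole window, and MUS81 H3K4me2 over 52.4% with no H3K4me3. CYC1, the cytochrome c gene beside ANB1, had H3K4me2 over the whole gene and no H3K4me3.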
